A study of Mus musculus with 8 samples.

Results

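The genes described here are those of the B cell lineage, read in RNA-Seq libraries of sorted mouse blood monocytes (MCs). They were taken as the entries of the deposited expression table whose symbol stood on a list of 33 B lineage symbols, and 32 of the 16486 entries matched. Faim3, an older symbol of Fcmr, had no entry of its own. The list was drawn up with earlier results of these data known, in which B cell genes were higher in Ly6C-low than in Ly6C-high MCs, so the difference between the subsets is given as a description and nothing is read from its counts of calls.

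MCs were sorted from blood as CD11b+Ly6G- cells of high or low Ly6C, a surface protein that separates classical (Ly6C-high) from patrolling (Ly6C-low) MCs. The gate as stated used no B cell marker. Control (CT) mice were male C57/BL6 mice, with 2 libraries of each subset. Type 1 diabetic (T1DM) mice were male C57/BL6 mice given streptozotocin, a toxin of the insulin-producing beta cells, for 5 days at 50 mg/kg per day, starting when they were 8 weeks old. Type 2 diabetic (T2DM) mice were male db/db mice, homozygous for a mutated leptin receptor, which become obese and diabetic. For T1DM and T2DM mice 1 library of each subset was analysed here, although the methods give sequencing in duplicate for every group, and blood was taken at 20 to 22 weeks. RNA of 5 mice per group was pooled before sequencing, so the 2 CT libraries may come from 1 pool, and their spread may leave out that among mice. CT libraries came from a NextSeq 500 and diabetic libraries from a HiSeq 4000, so that sequencer and diabetes cannot be told apart.

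A B cell carries an antigen receptor, an immunoglobulin paired with the signalling chains CD79A and CD79B, and kinases and adaptors such as BLK and BLNK pass the signal on. EBF1 and PAX5 set up and keep the B cell programme, co-receptors such as CD22 and CR2 tune the receptor, and the BAFF receptor (Tnfrsf13c) and CXCR5 keep mature B cells alive and guide them into follicles. In blood, B cells are lymphocytes separate from the MC lineage, although some of these genes, such as Cd37, Cd55, Cd24a, Ly86 and Cd38, are also used by other leukocytes. The 32 genes were therefore ordered by role into 5 receptor and signalling genes, 8 co-receptors and inhibitory or Fc-type receptors, 6 transcription factors and co-activators, 4 receptors for survival, homing and co-inhibition, 4 other B lineage genes and 5 genes also used by other leukocytes.

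Promoters were read from RefSeq (GRCm38.p6) as 250 bases before to 50 bases after the transcript start, since the members belong to one lineage and these are windows where B cell factors could be looked for. Of the 32 members 26 were found there, with 31 promoters in all. Cd79b, Ms4a1, Blk, Cxcr5, Mzb1 and Cd24a had none in that table. The motif CCCNNGGG, bound by EBF1, stood in the promoters of 4 members (Bank1, Cd22, Cd55 and Spib), and in 15.4% of all 27025 genes with a promoter. The octamer ATTTGCAT, bound by the POU factors that the co-activator POU2AF1 works with, stood in those of Blnk and Vpreb3, and in 1.97% of all genes. The Ets motif GAGGAAGT stood in those of Btla, Cd37, Cd72 and Fcrl1, and in 3.69% of all genes. Both strands were searched, and no member held more than 1 of the 3 motifs. A match is a description of the letters only. The 4 promoters shown are that of Cd79a, the receptor chain that defines the lineage, and examples of members with an octamer or an EBF1 motif, each 5′ to 3′ on the strand of its gene with the motif in capitals. Cd79a (chr7:24897247-24897546, plus strand) held none of the 3 motifs, Blnk (chr19:40994172-40994471, minus strand) held the octamer at position -130 from its transcript start, Vpreb3 (chr10:75948050-75948349, plus strand) the octamer at position -45 and Cd22 (chr7:30878979-30879278, minus strand) the EBF1 motif at position -48, each counted at the first letter of the motif.
Cd79a: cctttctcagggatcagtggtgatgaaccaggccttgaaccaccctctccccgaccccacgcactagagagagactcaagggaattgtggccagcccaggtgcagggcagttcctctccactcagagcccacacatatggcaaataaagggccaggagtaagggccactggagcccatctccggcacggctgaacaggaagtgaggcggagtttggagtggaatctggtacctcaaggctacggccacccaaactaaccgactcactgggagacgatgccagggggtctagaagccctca
Blnk: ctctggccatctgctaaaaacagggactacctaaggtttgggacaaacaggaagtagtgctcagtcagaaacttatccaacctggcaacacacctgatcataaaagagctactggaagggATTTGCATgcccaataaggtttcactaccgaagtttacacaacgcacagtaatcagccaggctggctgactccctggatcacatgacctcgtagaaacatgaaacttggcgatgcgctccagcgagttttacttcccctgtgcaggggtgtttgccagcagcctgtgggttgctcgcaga
Vpreb3: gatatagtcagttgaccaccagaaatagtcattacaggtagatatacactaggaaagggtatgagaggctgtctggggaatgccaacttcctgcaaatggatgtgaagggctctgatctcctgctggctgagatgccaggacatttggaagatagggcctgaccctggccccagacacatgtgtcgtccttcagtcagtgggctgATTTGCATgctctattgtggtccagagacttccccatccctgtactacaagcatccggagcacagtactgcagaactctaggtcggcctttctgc
Cd22: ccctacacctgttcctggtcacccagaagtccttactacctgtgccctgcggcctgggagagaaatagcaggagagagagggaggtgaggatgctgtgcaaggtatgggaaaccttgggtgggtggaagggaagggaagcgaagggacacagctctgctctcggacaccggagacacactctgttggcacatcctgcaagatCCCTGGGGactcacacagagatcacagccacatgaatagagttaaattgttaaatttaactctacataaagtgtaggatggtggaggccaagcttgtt

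The deposited values are log2 expression values of unknown scale, so a member is compared across libraries and not with another member. A log2 difference of 1 is a 2-fold difference. The labels give 40000000 raw reads for each library, but the table holds no counts, so the reads behind a single value are unknown. The sorted libraries carried MC genes at high level, Lyz2 (lysozyme) at 12.52 to 12.83 in Ly6C-low and 15.00 to 15.64 in Ly6C-high libraries. Csf1r, the receptor for the MC growth factor, was at 9.64 to 9.83 and at 10.09 to 10.65, respectively. Ly6c2, which encodes the sorted protein, was at 2.69 to 4.07 in Ly6C-low and 8.56 to 8.72 in Ly6C-high libraries, in the order the labels give.

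B lineage RNA was present in all 4 Ly6C-low libraries at much the same level and far lower in all 4 Ly6C-high libraries. All 4 Ly6C-low values lay above all 4 Ly6C-high values for 31 of the 32 members, an order that 16.3% of all genes showed and that the choice of the members used. The median member was at 7.15 and 7.17 in the CT, 7.13 in the T1DM and 7.26 in the T2DM Ly6C-low library. In Ly6C-high libraries it was at 3.67 and 3.60 (CT), 3.85 (T1DM) and 2.74 (T2DM). On the linear scale, the 32 members made up 0.675% and 0.664% of the summed values of all genes in the CT Ly6C-low libraries, 0.717% in T1DM and 0.784% in T2DM. In Ly6C-high libraries the share was 0.0903% and 0.0951% (CT), 0.118% (T1DM) and 0.0807% (T2DM). The T2DM pair of libraries therefore held both the highest and the lowest share. In these bulk libraries, fewer cells of a type and less RNA per cell cannot be told apart, and neither can B cells sorted along with MCs and B lineage transcripts made by MCs.

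**Figure D1:**
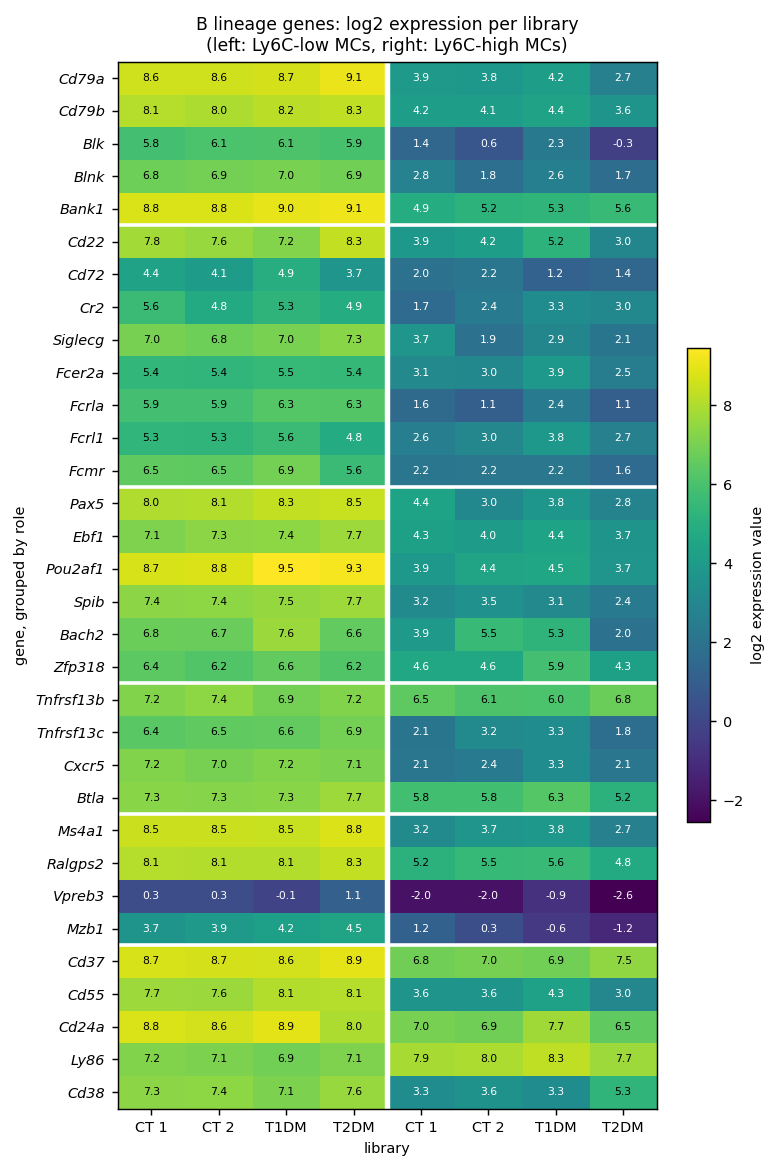
Log2 expression of the 32 B lineage genes (rows, grouped by role from receptor chains at the top to genes also used by other leukocytes at the bottom) in the 8 libraries (columns, Ly6C-low on the left and Ly6C-high on the right), with each value printed in its cell and shown by colour. All Ly6C-low values lay above all Ly6C-high values in 31 of the 32 rows, and Ly86 was the exception.

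Among the receptor chains, Cd79a (chr7:24897381-24902197, GENCODE M21 on GRCm38) was at 8.56 and 8.59 (CT), 8.66 (T1DM) and 9.08 (T2DM) in Ly6C-low MCs. Its Ly6C-high values were 3.90 and 3.83 (CT), 4.17 (T1DM) and 2.68 (T2DM). The Ly6C-low libraries thus lay within 0.52 of each other, and the T2DM Ly6C-high library stood below the other Ly6C-high libraries. Cd79a shares 12.2% of the 31-base sequences of its transcripts with other genes, chiefly Gm32220. Cd79b (chr11:106311341-106314762), its partner chain, was at 8.10 and 7.99 (CT), 8.21 (T1DM) and 8.31 (T2DM) in Ly6C-low and at 4.18 and 4.11 (CT), 4.38 (T1DM) and 3.64 (T2DM) in Ly6C-high MCs. Both chains had their highest Ly6C-low value and their lowest Ly6C-high value in T2DM mice. Ly6C-high minus Ly6C-low was -4.71 (CT), -4.49 (T1DM) and -6.41 (T2DM) for Cd79a and -3.90 (CT), -3.83 (T1DM) and -4.68 (T2DM) for Cd79b.

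The signalling genes behind the receptor had the same order of subsets. Blk, a Src family kinase largely restricted to B cells, was at 5.84 and 6.06 (CT), 6.11 (T1DM) and 5.94 (T2DM) in Ly6C-low and at 1.38 and 0.64 (CT), 2.28 (T1DM) and -0.26 (T2DM) in Ly6C-high MCs. The adaptor Blnk was at 6.82 and 6.95 (CT), 7.02 (T1DM) and 6.87 (T2DM) in Ly6C-low and at 2.76 and 1.85 (CT), 2.64 (T1DM) and 1.71 (T2DM) in Ly6C-high MCs. The scaffold Bank1 was at 8.79 and 8.79 (CT), 9.01 (T1DM) and 9.15 (T2DM) in Ly6C-low and at 4.87 and 5.18 (CT), 5.28 (T1DM) and 5.60 (T2DM) in Ly6C-high MCs. Blk and Blnk varied by 0.27 and 0.20 across the 4 Ly6C-low libraries and by 2.55 and 1.05 across the Ly6C-high libraries. Bank1 was the only receptor or signalling gene of the 5 that stood above both CT libraries in T2DM Ly6C-high MCs. The median difference of the subsets over these 5 genes was -4.58 (CT), -3.83 (T1DM) and -5.16 (T2DM), against -3.72, -3.72 and -4.32 over all 32 members and -0.09, -0.04 and -0.03 over all genes.

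Among the co-receptors and inhibitory or Fc-type receptors, the order of the mouse groups differed from gene to gene. Cd22, a sialic acid binding lectin that restrains the receptor, was at 7.79 and 7.61 (CT), 7.21 (T1DM) and 8.35 (T2DM) in Ly6C-low and at 3.86 and 4.18 (CT), 5.21 (T1DM) and 2.97 (T2DM) in Ly6C-high MCs. T1DM had its lowest Ly6C-low and highest Ly6C-high value, and T2DM the reverse, so the difference of the subsets ran from -2.01 in T1DM to -5.38 in T2DM mice. Siglecg, a related inhibitory lectin, was at 6.99 and 6.80 (CT), 7.01 (T1DM) and 7.32 (T2DM) in Ly6C-low and at 3.71 and 1.94 (CT), 2.94 (T1DM) and 2.11 (T2DM) in Ly6C-high MCs. Here the 2 CT Ly6C-high libraries themselves differed by 1.77, and the diabetic values lay within them. Cr2, the complement receptor that works with the B cell co-receptor complex, was at 5.64 and 4.76 (CT), 5.26 (T1DM) and 4.87 (T2DM) in Ly6C-low and at 1.66 and 2.35 (CT), 3.29 (T1DM) and 3.03 (T2DM) in Ly6C-high MCs. Both diabetic Ly6C-high values of Cr2 lay above both CT values, whereas the Ly6C-low values overlapped.

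Cd72, an inhibitory receptor for CD100, was at 4.37 and 4.09 (CT), 4.94 (T1DM) and 3.71 (T2DM) in Ly6C-low and at 1.98 and 2.17 (CT), 1.23 (T1DM) and 1.39 (T2DM) in Ly6C-high MCs. Fcer2a, the low affinity IgE receptor CD23, was at 5.39 and 5.36 (CT), 5.51 (T1DM) and 5.42 (T2DM) in Ly6C-low MCs, the narrowest range of the 32 members, and at 3.08 and 3.03 (CT), 3.86 (T1DM) and 2.49 (T2DM) in Ly6C-high MCs. Fcmr, the IgM Fc receptor, was at 6.52 and 6.47 (CT), 6.93 (T1DM) and 5.61 (T2DM) in Ly6C-low and at 2.16 and 2.19 (CT), 2.18 (T1DM) and 1.63 (T2DM) in Ly6C-high MCs. It thus had the widest range in Ly6C-low (1.32) and the narrowest in Ly6C-high MCs (0.56) of the 32 members. The Fc receptor-like genes Fcrla and Fcrl1 were at 5.86 to 6.28 and 4.83 to 5.64 in Ly6C-low and at 1.05 to 2.41 and 2.58 to 3.84 in Ly6C-high MCs, and both were highest in T1DM MCs of either subset. For Cd72, 41.6% of the exon bases overlap Tesk1 on the opposite strand, and whether the libraries kept strand is not stated, so reads of the pair may not be separable.

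Of the transcription factors, Pax5, the factor that holds B cells to their lineage, was at 8.01 and 8.08 (CT), 8.33 (T1DM) and 8.46 (T2DM) in Ly6C-low and at 4.41 and 3.03 (CT), 3.77 (T1DM) and 2.80 (T2DM) in Ly6C-high MCs. Ebf1 was at 7.15 and 7.34 (CT), 7.41 (T1DM) and 7.70 (T2DM) in Ly6C-low and at 4.27 and 4.05 (CT), 4.39 (T1DM) and 3.66 (T2DM) in Ly6C-high MCs. Pou2af1, the co-activator of octamer factors, was at 8.73 and 8.80 (CT), 9.45 (T1DM) and 9.27 (T2DM) in Ly6C-low and at 3.86 and 4.44 (CT), 4.51 (T1DM) and 3.71 (T2DM) in Ly6C-high MCs. In Ly6C-low MCs both diabetic libraries lay above both CT libraries for each of these 3 genes, and in Ly6C-high MCs the T2DM library lay below both. Spib, an Ets factor of B cells and plasmacytoid DCs, was at 7.38 and 7.41 (CT), 7.53 (T1DM) and 7.71 (T2DM) in Ly6C-low and at 3.20 and 3.49 (CT), 3.11 (T1DM) and 2.37 (T2DM) in Ly6C-high MCs. Zfp318, which promotes the IgD form of the receptor, was at 6.44 and 6.19 (CT), 6.59 (T1DM) and 6.18 (T2DM) in Ly6C-low and at 4.63 and 4.58 (CT), 5.86 (T1DM) and 4.27 (T2DM) in Ly6C-high MCs. Bach2, a repressor that holds back plasma cell formation, was at 6.77 and 6.71 (CT), 7.64 (T1DM) and 6.57 (T2DM) in Ly6C-low and at 3.87 and 5.52 (CT), 5.27 (T1DM) and 1.96 (T2DM) in Ly6C-high MCs. Its Ly6C-high values spread over 3.56, the widest range of any member, and the 2 CT libraries alone differed by 1.65.

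The receptors for survival, homing and co-inhibition were split. Tnfrsf13c, the BAFF receptor, was at 6.40 and 6.50 (CT), 6.58 (T1DM) and 6.93 (T2DM) in Ly6C-low and at 2.12 and 3.20 (CT), 3.29 (T1DM) and 1.76 (T2DM) in Ly6C-high MCs. Cxcr5 was at 7.15 and 6.98 (CT), 7.18 (T1DM) and 7.06 (T2DM) in Ly6C-low and at 2.13 and 2.40 (CT), 3.26 (T1DM) and 2.13 (T2DM) in Ly6C-high MCs. Both had subset differences between -3.29 and -5.18 in each mouse group. Btla, an inhibitory receptor of B, T and myeloid cells, was at 7.31 and 7.28 (CT), 7.34 (T1DM) and 7.68 (T2DM) in Ly6C-low and at 5.80 and 5.80 (CT), 6.30 (T1DM) and 5.16 (T2DM) in Ly6C-high MCs. Tnfrsf13b (TACI), another receptor for BAFF, was at 7.19 and 7.40 (CT), 6.93 (T1DM) and 7.19 (T2DM) in Ly6C-low and at 6.46 and 6.11 (CT), 6.03 (T1DM) and 6.77 (T2DM) in Ly6C-high MCs. Its subset difference was small, -1.01 (CT), -0.90 (T1DM) and -0.42 (T2DM), beside that of Tnfrsf13c, -3.79 (CT), -3.29 (T1DM) and -5.18 (T2DM).

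Ms4a1, which encodes CD20, had the largest difference of the subsets in CT mice of the 32 members. It was at 8.50 and 8.50 (CT), 8.46 (T1DM) and 8.84 (T2DM) in Ly6C-low and at 3.21 and 3.69 (CT), 3.82 (T1DM) and 2.66 (T2DM) in Ly6C-high MCs. Ralgps2, a Ral exchange factor, was at 8.13 and 8.06 (CT), 8.08 (T1DM) and 8.34 (T2DM) in Ly6C-low and at 5.16 and 5.50 (CT), 5.57 (T1DM) and 4.76 (T2DM) in Ly6C-high MCs. Both genes were highest in T2DM Ly6C-low and lowest in T2DM Ly6C-high MCs. Mzb1, a chaperone of immunoglobulin assembly, was at 3.68 and 3.91 (CT), 4.21 (T1DM) and 4.46 (T2DM) in Ly6C-low and at 1.19 and 0.32 (CT), -0.56 (T1DM) and -1.17 (T2DM) in Ly6C-high MCs, with both diabetic libraries outside the CT values on opposite sides in the 2 subsets. Mzb1 shares 55.1% of its 31-base sequences with the neighbouring gene SPATA24, so its values are uncertain. Vpreb3, a partner of the receptor in immature B cells, had low values, at 0.26 and 0.27 (CT), -0.08 (T1DM) and 1.10 (T2DM) in Ly6C-low MCs. The CT Ly6C-high libraries gave it exactly the same value, -2.0, and the T1DM and T2DM ones -0.87 and -2.56. Differences between such low values are uncertain.

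The 5 genes also used by other leukocytes had a smaller median difference of the subsets, -1.80 (CT), -1.74 (T1DM) and -1.48 (T2DM). Cd37, a tetraspanin of leukocytes, was at 8.73 and 8.67 (CT), 8.61 (T1DM) and 8.95 (T2DM) in Ly6C-low and at 6.83 and 6.97 (CT), 6.88 (T1DM) and 7.47 (T2DM) in Ly6C-high MCs. Cd24a, a small glycoprotein of B cells and granulocytes, was at 8.79 and 8.65 (CT), 8.94 (T1DM) and 7.98 (T2DM) in Ly6C-low and at 6.98 and 6.85 (CT), 7.73 (T1DM) and 6.52 (T2DM) in Ly6C-high MCs. The T2DM library of either subset was the lowest and the T1DM library the highest. Cd55, a complement regulator, differed as much as the lineage genes, at 7.67 and 7.62 (CT), 8.08 (T1DM) and 8.11 (T2DM) in Ly6C-low and at 3.63 and 3.64 (CT), 4.30 (T1DM) and 2.99 (T2DM) in Ly6C-high MCs, but 11.4% of its 31-base sequences are shared, chiefly with Cd55b. Ly86, which encodes MD-1 and pairs with RP105 on B cells and myeloid cells, was the member with the opposite order, at 7.15 and 7.07 (CT), 6.89 (T1DM) and 7.13 (T2DM) in Ly6C-low and at 7.86 and 7.98 (CT), 8.30 (T1DM) and 7.67 (T2DM) in Ly6C-high MCs. Cd38, an NAD-consuming surface enzyme, was at 7.35 and 7.42 (CT), 7.07 (T1DM) and 7.60 (T2DM) in Ly6C-low and at 3.27 and 3.56 (CT), 3.29 (T1DM) and 5.30 (T2DM) in Ly6C-high MCs. The T2DM Ly6C-high value of Cd38 was therefore 1.88 above the CT mean, the largest excess of the members in that library.

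In limma fits of all 16486 genes, a call needed an absolute log2FC above 1 beside an adjusted p-value below 0.01. Between the 2 subsets of CT mice 21 of the 32 members were called, all lower in Ly6C-high, where 1.43% of all genes were called lower. Over the 8 libraries with mouse group as a covariate 30 members were called lower, where 6.76% of all genes were. The choice of the members used these contrasts, and nothing is read from the counts. The CT count was 0 without the trend of the variance, with the replicate number as a block or when any 1 of the 4 libraries was left out. By size alone, Ly6C-high was lower by more than 1 for 31 (CT), 28 (T1DM) and 30 (T2DM) members, where 16.8%, 16.8% and 17.8% of all genes were. Tnfrsf13b fell just outside this size in T1DM, at -0.90, and just inside in CT mice, at -1.01.

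**Figure D2:**
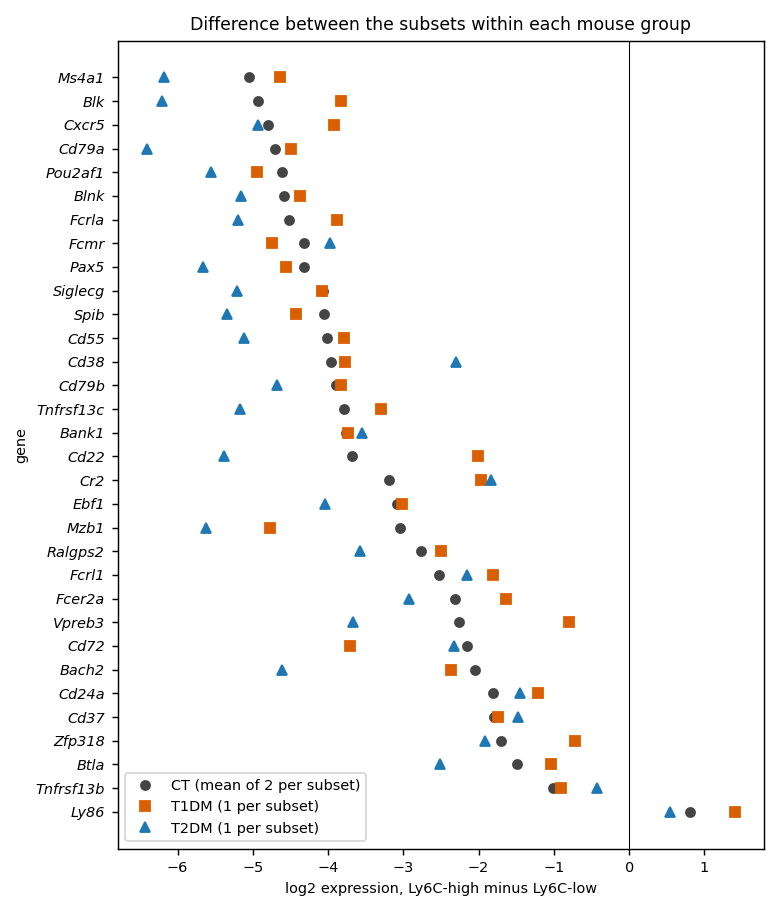
Ly6C-high minus Ly6C-low log2 expression (horizontal axis) for each of the 32 B lineage genes (vertical axis, ordered by the CT value) in CT (circles, mean of 2 libraries per subset), T1DM (squares) and T2DM (triangles, 1 library per subset) mice. The points lay left of 0 for 31 genes in each mouse group, and T2DM gave the lowest of the 3 values for 23 genes, where 34.1% of all genes had it lowest in T2DM.

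The question of how far B lineage RNA in the Ly6C-low gate varied was answered by the range over its 4 libraries. The median range was 0.48, from 0.15 for Fcer2a to 1.32 for Fcmr, beside a median of 0.64 over all genes. It was under 1 for 27 members, where 70.1% of all genes were, and the 5 above 1 were Fcmr, Cd72 (1.22), Vpreb3 (1.18), Cd22 (1.13) and Bach2 (1.07). Over the 12527 genes with a mean log2 of at least 1, the median range was 0.52 and 82.6% were under 1, close to the members. In Ly6C-high MCs the median range was 1.24, beside 0.75 over all genes, and it was under 1 for 10 members, where 63.4% of all genes and 75.2% of those 12527 were. The range was wider in Ly6C-high than in Ly6C-low MCs for 30 members, and for 57.9% of all genes. Members were at far lower values in Ly6C-high MCs, and the part of their level in this difference was not tested.

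In Ly6C-low MCs, T1DM mice gave small excesses over CT mice. The median member was 0.14 above the CT mean, against 0.00 over all genes and -0.03 between the 2 CT libraries, and 0.078 above it with quantile normalization. In all, 23 members lay above both CT libraries, where 35.1% of all genes did, and 7 below both, where 34.9% did. The largest differences were those of Bach2 (0.90), Cd72 (0.71) and Pou2af1 (0.68), and the lowest was that of Cd22 (-0.49). In T2DM mice the median was 0.26, against -0.01 over all genes, with 20 members above both CT libraries, where 34.5% of all genes were, and 7 below both, where 37% were. The highest were Vpreb3 (0.84), Mzb1 (0.66) and Cd22 (0.64), and the lowest Fcmr (-0.89) and Cd24a (-0.74). No member was more than 1 above the CT mean, where 4.03% (T1DM) and 5.09% (T2DM) of all genes were, or more than 1 below it, where 4.78% and 5.68% were. Over both models together, limma called 0 members and 0 of 16486 genes for diabetic minus CT, and 0 members had an unadjusted p-value under 0.05, where 2.97% of all genes (489) did. This fit pools both models and shares its spread with the Ly6C-high libraries, so the 0 does not show that Ly6C-low MCs were unchanged. The median fitted difference of the members was 0.13. It was 0.26 without the T1DM mice and 0.14 without the T2DM mice.

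In Ly6C-high MCs the median member lay above CT mice in T1DM and below them in T2DM. An adjustment that set the diabetic mean at the CT mean within Ly6C-high MCs would itself place the models on opposite sides for every gene. An adjustment over both subsets together need not do so. In these values both models lay above the CT mean for Cr2 (1.29 in T1DM and 1.02 in T2DM) and Bank1 (0.26 and 0.58). Both lay below it for Mzb1 (-1.32 and -1.93), Cd72 (-0.84 and -0.69) and Spib (-0.24 and -0.98). The other members had the models on opposite sides. Whether either adjustment was made is not stated, and its part in these medians was not tested. In T1DM the median member was 0.37 above the CT mean, against 0.02 over all genes and between the 2 CT libraries. There 21 members lay above both CT libraries, where 36.3% of all genes did, and 4 below both, where 33.5% did. Of the members 7 were above by more than 1, where 5.11% of all genes were, among them Cr2 (1.29), Blk (1.27), Zfp318 (1.26) and Cd22 (1.18), and Mzb1 (-1.32) was below by more than 1, where 4.94% were. In T2DM the median was -0.56, against 0.02 over all genes, with 25 members below both CT libraries, where 35.5% of all genes were, and 5 above both, where 38.4% were. The 5 below by more than 1, where 7.89% of all genes were, were Bach2 (-2.74), Mzb1 (-1.93), Blk (-1.28), Cd79a (-1.19) and Cd22 (-1.05). The 5 above both were Cd38 and Cr2, which exceeded 1 as 5.96% of all genes did, at 1.88 and 1.02, and Cd37 (0.58), Bank1 (0.58) and Tnfrsf13b (0.48). The 2 comparisons share the CT libraries. Differences of Blk and Mzb1, at low values in Ly6C-high MCs, and of Bach2, whose CT libraries differed by 1.65, are uncertain.

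By role, all 6 transcription factors and all 4 other B lineage genes lay below both CT libraries in T2DM Ly6C-high MCs, with medians of -0.71 and -0.68, as did 4 of the 5 receptor and signalling genes (median -0.59) and 5 of the 8 co-receptors (-0.55). In T1DM Ly6C-high MCs the co-receptors had the highest median of the role groups, 0.93, with 7 of 8 above the CT mean and Cd72 (-0.84) below. With T1DM and T2DM pooled, limma called 0 members and 0 of 16486 genes for diabetic minus CT in Ly6C-high MCs, and 4 members (Mzb1, Cr2, Bank1 and Spib) had an unadjusted p-value under 0.05, where 4.48% of all genes (739) did. That count depended on which model was in the fit. It was 16 members (1925 of all genes) without the T1DM Ly6C-high library and 12 (973) without the T2DM one, 18 (2705) without the T1DM mice and 14 (1674) without the T2DM mice, and 1 to 5 without a CT library. The lowest adjusted p-value of a member among these limma fits was 0.0463, without the T1DM mice. The difference between the subset effect in diabetic and in CT mice was called by limma for 0 members and 0 genes, and 2 members (Mzb1 and Cr2) had an unadjusted p-value under 0.05, where 6.58% of all genes (1084) did. This count was 14 (1903 of all genes) without the T1DM and 6 (1329) without the T2DM Ly6C-high library, 12 (2297) without the T1DM and 9 (1822) without the T2DM mice, and 1 to 4 without a CT library. In the deposited values the mean of the 4 diabetic libraries lay close to that of the 4 CT libraries for most genes: they differed by a median of 0.12 over all genes and 0.14 over the members, whereas the T1DM and T2DM means differed by a median of 0.31 and 0.52. Whether an adjustment between the sequencer runs made them so is not stated. The comparisons of diabetic with CT MCs stand under that limit.

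**Figure D3:**
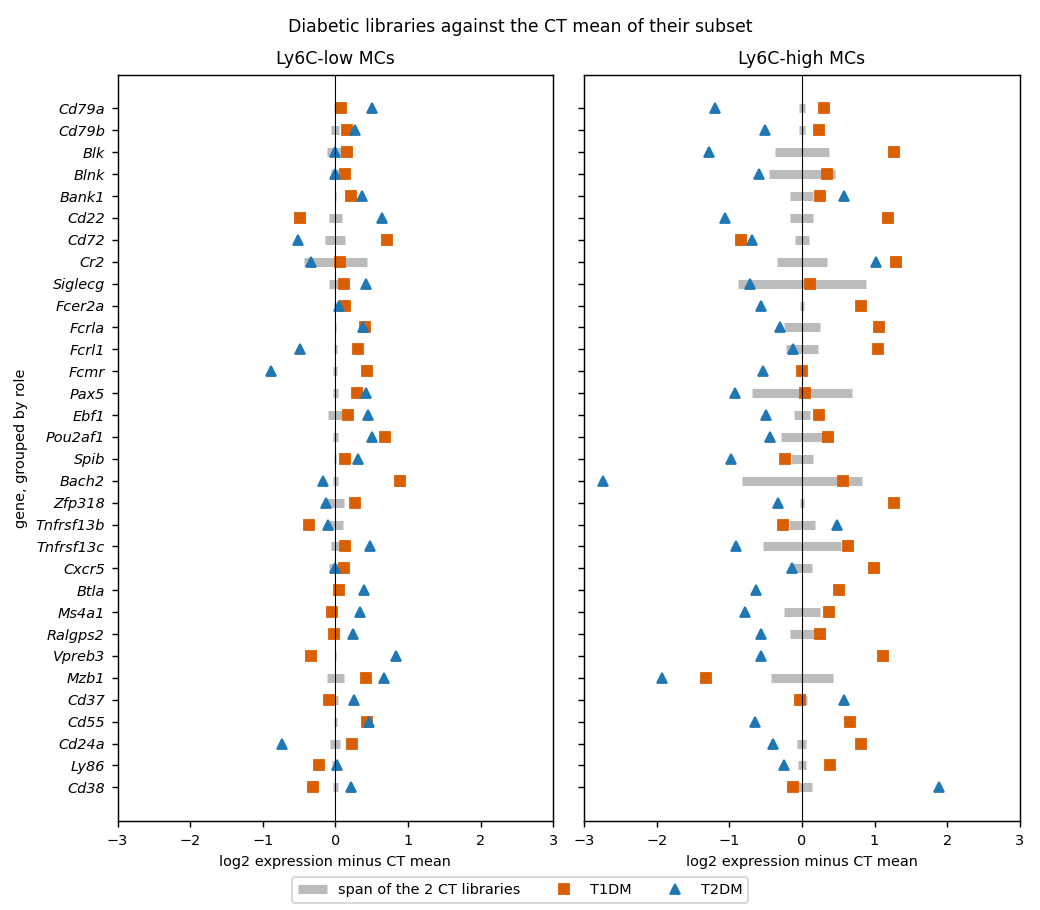
Log2 expression minus the CT mean of the same subset (horizontal axis) for the 32 B lineage genes (vertical axis, grouped by role) in Ly6C-low (left) and Ly6C-high MCs (right). Grey bars span the 2 CT libraries, orange squares are the T1DM and blue triangles the T2DM library. All points lay within 1 of the CT mean in Ly6C-low MCs, and in Ly6C-high MCs 27 of the 32 triangles lay below 0 and 26 of the 32 squares above it.

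T2DM and T1DM libraries came from the same sequencer and could be compared without CT mice. Each model, however, rests on 1 group of 5 pooled mice. The models also differ in genotype and treatment, and the strain background of the db/db mice is not stated. In the limma fit of this comparison the 2 subset libraries of a model stand as its replicates. Its p-values therefore do not measure the spread between groups of mice. In Ly6C-high MCs 27 members were lower in T2DM than in T1DM, with a median of -0.95 against 0 over all genes. The difference was below -1 for 15 members, where 10.8% of all genes were, and above 1 for 1 (Cd38, 2.01), where 8.46% were. The lowest were Bach2 (-3.31), Blk (-2.55) and Cd22 (-2.24). Blk was at low values there, 2.28 in T1DM and -0.26 in T2DM, so its difference is uncertain. For Bach2 the 2 CT Ly6C-high libraries alone differed by 1.65. In Ly6C-low MCs the median was 0.13 against 0.00 over all genes (0.23 with quantile normalization), with 19 members higher and 13 lower in T2DM. Vpreb3 (1.18) and Cd22 (1.13) were above 1, where 7.29% of all genes were, and Fcmr (-1.32), Cd72 (-1.22) and Bach2 (-1.07) were below -1, where 7.97% were. Of the 32 members 12 were lower in T2DM in both subsets, where 27.9% of all genes were, and 4 were higher in both, where 28.7% were. In Ly6C-high lower and in Ly6C-low MCs higher were 15 members, where 20.7% of all genes were. Set against CT mice, 5 members in T1DM and 11 in T2DM lay on opposite sides of the CT libraries in the 2 subsets by more than these differed, where 9.92% and 9.98% of all genes did.

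Over both subsets together, with the spread shared by the 8 libraries, limma called 0 of the 32 members between T2DM and T1DM, where 0.588% of all genes (97) were called, 33 higher and 64 lower in T2DM. An unadjusted p-value under 0.05 was found for 11 members, where 14.3% of all genes had one. This count was 7 (1999 of all genes) without the trend. The median fitted difference of the members was -0.46 and depended on single libraries. It was -0.16 without the T1DM and 0.11 without the T2DM Ly6C-high library. Without the T1DM or the T2DM Ly6C-low library it was -0.73 or -0.92. Cd24a came nearest, at a log2FC of -1.09 (SE 0.16), with an adjusted p-value of 0.014 by limma. It was lower in T2DM than in T1DM in both subsets, by 0.96 in Ly6C-low and 1.21 in Ly6C-high MCs. Bach2 was at -2.19 (SE 0.66, limma adjusted p-value of 0.171) and Cd38 at 1.27 (SE 0.37, limma adjusted p-value of 0.155). Of the others, Fcmr was at -0.93 (SE 0.24, limma adjusted p-value of 0.11), and Zfp318 at -1.0 (SE 0.27, limma adjusted p-value of 0.129). Cd37 was higher in T2DM at 0.47 (SE 0.13, limma adjusted p-value of 0.125). With the T2DM Ly6C-low library left out, Cd38 was at 2.07 and Cd79a at -1.42, and T2DM mice then stand on their Ly6C-high library alone.

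Most other genes of the receptor pathway were not called between the subsets. Of the 21 reported here, limma called 2 lower in CT Ly6C-high MCs (Cd81 and Swap70) and 3 lower over the 8 libraries (Rasgrp3 as well), where 1.43% and 6.76% of all genes were, and 0 higher, where 2.1% and 5.37% were. Their median difference of the subsets was -0.08 (CT), -0.20 (T1DM) and -0.015 (T2DM). Cd81, part of the B cell co-receptor complex, was at 6.44 and 6.47 (CT), 6.54 (T1DM) and 6.28 (T2DM) in Ly6C-low and at 4.48 and 4.49 (CT), 5.28 (T1DM) and 3.89 (T2DM) in Ly6C-high MCs. Lyn, a kinase that myeloid cells also use, was at 9.35 and 9.52 (CT), 9.47 (T1DM) and 9.40 (T2DM) in Ly6C-low and at 10.07 and 10.08 (CT), 10.20 (T1DM) and 10.01 (T2DM) in Ly6C-high MCs. Between T2DM and T1DM limma called 0 of the 21, where 0.588% of all genes were called.

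Lists of B cell stages were read in the same way. Of 5 follicular and naive genes, 3 were called lower in Ly6C-high MCs over the 8 libraries (Ighd, Ccr7 and Foxp1), where 6.76% of all genes were. Ighd, the IgD heavy chain of naive B cells, was at 7.19 and 7.25 (CT), 7.61 (T1DM) and 7.80 (T2DM) in Ly6C-low and at 3.20 and 2.82 (CT), 4.13 (T1DM) and 2.19 (T2DM) in Ly6C-high MCs. Of 6 B1 and marginal zone genes, 3 were called lower (Bhlhe41, Zbtb32 and Dtx1), against the same 6.76%. Bhlhe41, a factor of B1 cells, was at 6.35 and 6.27 (CT), 6.41 (T1DM) and 6.72 (T2DM) in Ly6C-low and at 2.49 and 3.02 (CT), 2.37 (T1DM) and 1.94 (T2DM) in Ly6C-high MCs. Zbtb32, a factor of memory-type B cells, was at 5.01 and 5.18 (CT), 5.49 (T1DM) and 5.56 (T2DM) in Ly6C-low and at 1.20 and 2.22 (CT), 0.75 (T1DM) and 1.01 (T2DM) in Ly6C-high MCs, so genes of either stage list shared the order of the members.

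Of 6 plasma cell genes in the table, 2 were called lower over the 8 libraries (Jchain and Derl3), where 6.76% of all genes were, and 1 higher (Xbp1), where 5.37% were. Jchain, the joining chain of secreted IgM and IgA, was at 5.62 and 5.73 (CT), 7.28 (T1DM) and 5.75 (T2DM) in Ly6C-low and at 3.44 and 3.22 (CT), 3.93 (T1DM) and 2.10 (T2DM) in Ly6C-high MCs, so that T1DM stood apart among the Ly6C-low libraries. Xbp1, a factor of secretory cells of many types, was at 7.47 and 7.33 (CT), 7.38 (T1DM) and 7.56 (T2DM) in Ly6C-low and at 8.32 and 8.44 (CT), 8.49 (T1DM) and 8.61 (T2DM) in Ly6C-high MCs. Bcl6, a repressor that germinal centre B cells and other leukocytes use, was at 7.78 and 7.81 (CT), 8.10 (T1DM) and 7.85 (T2DM) in Ly6C-low and at 7.98 and 7.97 (CT), 7.81 (T1DM) and 7.50 (T2DM) in Ly6C-high MCs, and the ranges overlapped. Of 7 progenitor genes 3 were in the table, and the 1 called, Cd93, which myeloid cells also use, was higher in Ly6C-high MCs, as 5.37% of all genes were. Rag2, a recombinase of lymphocyte progenitors, was at 1.90 and 2.21 (CT), 2.21 (T1DM) and 2.02 (T2DM) in Ly6C-low and at 1.15 and 1.37 (CT), 1.94 (T1DM) and 1.37 (T2DM) in Ly6C-high MCs. In the comparison of T2DM with T1DM, Cd9 of the B1 and marginal zone list, also a platelet and myeloid tetraspanin, was called lower at -1.12 (SE 0.14, limma adjusted p-value of 0.00663).

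Markers of other blood cells were compared across the same libraries, and their part in the members' values was not tested. The summed level of 12 NK cell markers, as log2 of the summed linear values, was 9.85 and 9.81 (CT), 10.44 (T1DM) and 7.89 (T2DM) in Ly6C-low MCs. It was 7.04 and 7.18 (CT), 7.45 (T1DM) and 5.40 (T2DM) in Ly6C-high MCs. All 12 were lower in T2DM than in CT Ly6C-low MCs, whereas the median B lineage member was 0.26 higher there. Of the 12, limma called 6 lower in T2DM than in T1DM, where 0.388% of all genes were. The summed level of 15 T cell markers was 7.89 to 8.15 in Ly6C-low and 5.58 to 5.94 in Ly6C-high MCs. Most of it in Ly6C-low MCs was Cd2, which B and NK cells of mice also express, at 7.33 and 7.25 (CT), 7.52 (T1DM) and 7.41 (T2DM). The defining T cell chain Cd3e was at 2.44 and 1.45 (CT), 2.57 (T1DM) and 2.27 (T2DM) in Ly6C-low and at 2.70 and 2.17 (CT), 0.26 (T1DM) and 1.80 (T2DM) in Ly6C-high MCs, so that the subsets overlapped.

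Platelet markers (7 genes) had a summed level of 8.85 and 8.83 (CT), 9.96 (T1DM) and 8.20 (T2DM) in Ly6C-low MCs, and of 9.20 and 9.10 (CT), 9.83 (T1DM) and 7.95 (T2DM) in Ly6C-high MCs. Erythroid markers (7 genes) had 14.56 and 14.56 (CT), 14.94 (T1DM) and 14.01 (T2DM) in Ly6C-low and 14.34 and 14.32 (CT), 15.22 (T1DM) and 14.02 (T2DM) in Ly6C-high MCs. The summed levels of both lists were thus highest in T1DM and lowest in T2DM. Neutrophil markers (9 genes in the table) had a summed level of 9.31 and 9.27 (CT), 9.20 (T1DM) and 10.71 (T2DM) in Ly6C-high MCs. Their median there was 1.53 and 1.46 (CT), 2.95 (T1DM) and 3.41 (T2DM). T1DM thus lay below CT mice by the sum and above them by the median. Most of that sum was Csf3r (8.66 to 9.36) and Mmp8 (6.99 to 9.70), both higher in Ly6C-high than in Ly6C-low MCs of each mouse group. Of the 9 genes, 7 in T1DM and 7 in T2DM were above the CT mean in Ly6C-high MCs. In Ly6C-low MCs the summed level was 7.35 and 7.24 (CT), 7.34 (T1DM) and 8.30 (T2DM), and all 9 genes were above the CT mean in T2DM. Classical MC markers (7 genes) had summed levels of 13.39 and 13.38 (CT), 13.67 (T1DM) and 14.73 (T2DM) in Ly6C-high MCs, and of 9.65 and 9.60 (CT), 9.63 (T1DM) and 10.14 (T2DM) in Ly6C-low MCs. Nonclassical MC markers (10 genes) had 11.69 and 11.72 (CT), 11.34 (T1DM) and 10.73 (T2DM) in Ly6C-high MCs. In Ly6C-low MCs they had 11.82 and 11.81 (CT), 12.17 (T1DM) and 11.86 (T2DM). Of these 10 genes, 4 (CT), 1 (T1DM) and 0 (T2DM) were higher in Ly6C-high than in Ly6C-low MCs. In Ly6C-high MCs of T2DM mice, the B lineage share and the summed levels of NK, platelet, erythroid and nonclassical MC markers were therefore at their lowest of the Ly6C-high libraries and those of classical MC and neutrophil markers at their highest.

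**Figure D4:**
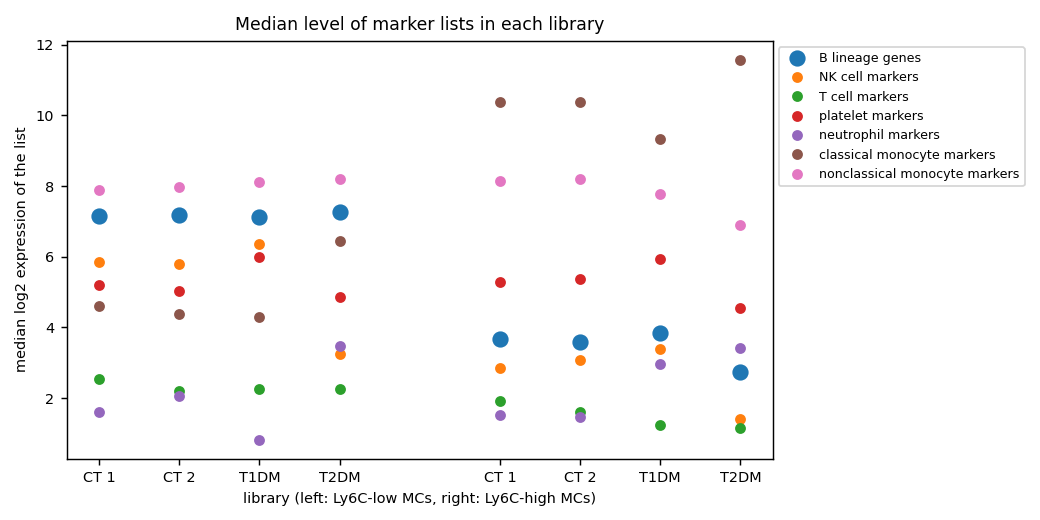
Median log2 expression (vertical axis) of the 32 B lineage genes (large blue points) and of 6 marker lists of other cells (small points, colours in the legend) in each of the 8 libraries (horizontal axis, Ly6C-low on the left and Ly6C-high on the right). The B lineage median lay between 7.13 and 7.26 in Ly6C-low libraries, while the NK cell median was 5.80 to 6.37 in CT and T1DM and 3.24 in T2DM.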

How the data were processed

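The authors sorted blood MCs, pooled RNA of 5 mice per group, assigned reads to transcripts by Kallisto 0.45, made gene values by tximport 1.12.3 under R 3.6.1, and deposited log2 expression values of 16486 genes. The submitters' processing notes name mm10. The scaling, the filter on low genes, the library strand and any adjustment between sequencers are not given in the sources used here. The labels give 40000000 raw reads for each library, but without counts the counting error of a value is unknown. Libraries were assigned by their names in the table.

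Here the deposited log2 values were used as they stand. Tests were made by lmFit and eBayes with trend (limma 3.58.1, R 4.3.3) with Benjamini-Hochberg adjustment over 16486 genes and the thresholds of the methods. The fits were 4 CT libraries by subset, 8 libraries by subset and mouse group, and 8 libraries in 4 groups with T1DM and T2DM pooled. Comparisons with 1 library on a side are differences without a test. Pooled RNA was sequenced in duplicate per the methods, so p-values may measure technical spread. On simulated data with noise taken from the CT replicates alone, the CT fit recovered 99% of genes changed by a log2FC of 2. The comparison of T2DM with T1DM recovered 100%, and the difference of the subset effect between diabetic and CT mice 89%. Spread among mice was not simulated, so these shares do not give the power in the real libraries. Tables and figures used Python (version 3.11.15).

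The members, gene lists and rules were chosen with earlier results of these data known. Any member could be named, and of each other list the 3 genes highest in Ly6C-low MCs and those called. Of the receptor pathway and germinal centre lists, 1 gene each is not reported here and is left out of their counts and medians. Lyz2, Csf1r, Ly6c2, Cd3e and Cd2 serve as defining markers, of which Ly6c2 and Cd3e lie outside that rule and were chosen after their values were seen. Coordinates and shared 31-base sequences came from GENCODE M21. The alternatives were a low-value filter (mean log2 of at least 1), 1 added on the linear scale, quantile normalization, no trend, a replicate block, calls at an adjusted p-value of 0.05, and leaving out libraries, mouse groups or members. The deviations of the CT replicates from their means correlated at 0.01 between the subsets over all genes. Duplicates of 1 pool could give this with or without pairing, so whether the number pairs them is unknown.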

Additional observations from a re-analysis of the deposited data

Results flagged for a closer look

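Some members lay on opposite sides of CT mice in the 2 subsets, in each case with the diabetic library outside both CT libraries by more than these 2 differed. The values are the diabetic minus CT difference in Ly6C-high MCs minus that in Ly6C-low MCs, on the log2 scale. In T1DM mice these were Cd22 (1.68), Cd72 (-1.55), Vpreb3 (1.46), Mzb1 (-1.74) and Ly86 (0.60), 5 of 32 members, where 9.92% of all genes did so. In T2DM mice these were Cd79a (-1.70), Cd79b (-0.78), Cd22 (-1.70), Ebf1 (-0.95), Spib (-1.28), Btla (-1.02), Ms4a1 (-1.12), Ralgps2 (-0.82), Vpreb3 (-1.40), Mzb1 (-2.59) and Cd55 (-1.11), 11 of 32 members, where 9.98% of all genes did so. In T2DM all 11 were lower in Ly6C-high and higher in Ly6C-low MCs. Each value rests on 1 diabetic library per subset, and the difference was not tested within a model. With both models pooled, limma called 0 of the 32 members for this difference, with the lowest adjusted p-value at 0.633 for Mzb1.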

How the results depend on the processing

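Of the called counts, the 21 members called between the CT subsets became 0 without the trend, 0 with the replicate block and 0 to 0 when any CT library was left out. It was 29 with the low-value filter. With fewer libraries there is less information on the spread. With the block the count over the 8 libraries was 29 instead of 30, and the block changed no other count. The count between T2DM and T1DM was 1 (Cd24a) with the low-value filter, where 124 of 12527 genes were called. At an adjusted p-value limit of 0.05 it was 1, where 253 of 16486 genes were called. Without a diabetic library that model rests on 1 library, and no count is given. The counts of diabetic minus CT and of its difference between subsets were 0 in every alternative run.

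Among the fitted medians of members, that of T2DM minus T1DM over both subsets went from -0.46 to 0.11 and that of the subset effect, diabetic minus CT, from -0.13 to 0.22 without the T2DM Ly6C-high library. That of diabetic minus CT in Ly6C-high MCs was -0.022, 0.037 with the replicate block, 0.37 without the T2DM Ly6C-high library, and 0.079 and 0.024 without CT Ly6C-high replicates 1 and 2. No median of a difference between single libraries or CT means changed sign in the alternatives run. With 1 added on the linear scale they were 0.32 (T1DM minus CT), -0.48 (T2DM minus CT) and -0.78 (T2DM minus T1DM) in Ly6C-high MCs, and -3.59 (CT), -3.39 (T1DM) and -3.96 (T2DM) for Ly6C-high minus Ly6C-low. With quantile normalization they were 0.33, -0.52 and -0.83 in Ly6C-high MCs, 0.078 (T1DM minus CT) and 0.23 (T2DM minus T1DM) in Ly6C-low MCs, and -3.79 and -3.64 for the subsets in CT and T1DM mice. With the low-value filter T2DM minus T1DM in Ly6C-high MCs was -0.93 and the subsets differed by -3.76 in CT and -4.61 in T2DM mice. Over the 27 members outside the genes shared with other leukocytes these 3 were -0.97, -3.76 and -4.68, and T2DM minus CT in Ly6C-low MCs was 0.31. Leaving out a CT library gave 0.34 to 0.47 (T1DM minus CT) and -0.55 to -0.50 (T2DM minus CT) in Ly6C-high, 0.15 to 0.17 and 0.24 to 0.29 in Ly6C-low MCs, and -3.75 to -3.50 for the CT subsets.

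The share of summed values over the 27 members was 0.0433%, 0.0543% and 0.0329% in CT, T1DM and T2DM Ly6C-high and 0.51%, 0.557% and 0.624% in Ly6C-low MCs. With quantile normalization it was 0.0977%, 0.125% and 0.0895% in Ly6C-high MCs, and without the member of the highest summed level 0.618%, 0.638% and 0.712% in Ly6C-low MCs. Searched on the given strand only, GAGGAAGT stood in 1 member. The causes of these shifts were not tested. Each diabetic value rests on 1 library, and the CT spread of Ly6C-high MCs reached 1.77.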
